A study of Mus musculus with 14 samples.

Results

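Genes of the interleukin 1, TNF and NF-kB system were followed in retinal veins of 9-month-old mice: the ligands Il1a, Il1b and Tnf, the receptor antagonist Il1rn, the receptors Il1r1, Tnfrsf1a and Tnfrsf1b, the NF-kB subunit Nfkb1 and the inhibitors Nfkbia and Tnfaip3. They were taken by symbol, and all 10 of 10 symbols were found among the 40123 gene symbols of the expression table and passed the filter on low values. RNA was sequenced from DBA/2J mice, an inbred strain that develops raised eye pressure and glaucoma with age, and from the normotensive control strain DBA/2J-Gpnmb+/SjJ, the same background with a working Gpnmb allele. There were 9 DBA/2J and 5 control libraries, each from the 4 major veins of 1 mouse, dissected 5 minutes after an intraperitoneal dose of 0.33 mg of sodium fluorescein per g of body weight, which both groups received. By its title, the series asks about eye pressure, the blood-retinal barrier and loss of retinal ganglion cells.

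Interleukin 1 and TNF are cytokines released mainly by activated myeloid cells. Their receptors on endothelium and other cells lead through kinase cascades to the release of NF-kB from its cytoplasmic inhibitors, and NF-kB then switches on adhesion molecules, chemokines and its own inhibitors, which end the signal. In venous endothelium this is the textbook route to leukocyte adhesion.

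Of the 10 genes, 5 rose in DBA/2J veins at an adjusted p under 0.05 (limma, adjusted over all genes tested): the ligand gene Il1b, its antagonist Il1rn, the receptor genes Il1r1 and Tnfrsf1b, and the inhibitor gene Tnfaip3. None fell, also at an unadjusted p under 0.05 (0 genes) and with voom weights (0 genes). Il1a, Tnf, Tnfrsf1a, Nfkb1 and Nfkbia did not pass. Over all 29166 genes tested, 19.3% were called, 12.1% higher and 7.2% lower. Among the 13363 coding genes whose scaled count averaged 50 or more the shares were 22.4% and 9.23%. Higher genes made up 62.6% of all calls as deposited, 48.9% after quantile normalization, 78.6% at equal library totals, 79.6% with voom weights and 42.4% once each library's trend with transcript length and GC content had been taken out. The median log2 fold change of the 10 genes was 1.13, against 0.05 over all genes tested. Fold changes are given on the log2(scaled count + 1) scale. A scaled count is the deposited value, an estimated read count divided by a factor for each library.

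The libraries held an estimated 8931961 to 33786238 reads. Samples 1 and 4 of DBA/2J had the fewest. The control libraries are numbered 16 to 30 and those of DBA/2J 31 to 39, so library number and strain cannot be told apart. All 17 pan-endothelial markers were above 0 in every library, and their summed scaled count was 20596 to 35504 in controls and 18800 to 79233 in DBA/2J. The veins also carried rod RNA, at 443648 to 861823 and 495811 to 1239390 over 8 markers. The 8 lens markers all fell, from 1268040 to 2969200 in controls to between 121 and 183791 in DBA/2J. In such bulk samples, fewer cells of a type and less RNA per cell cannot be told apart.

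**Figure D1:**
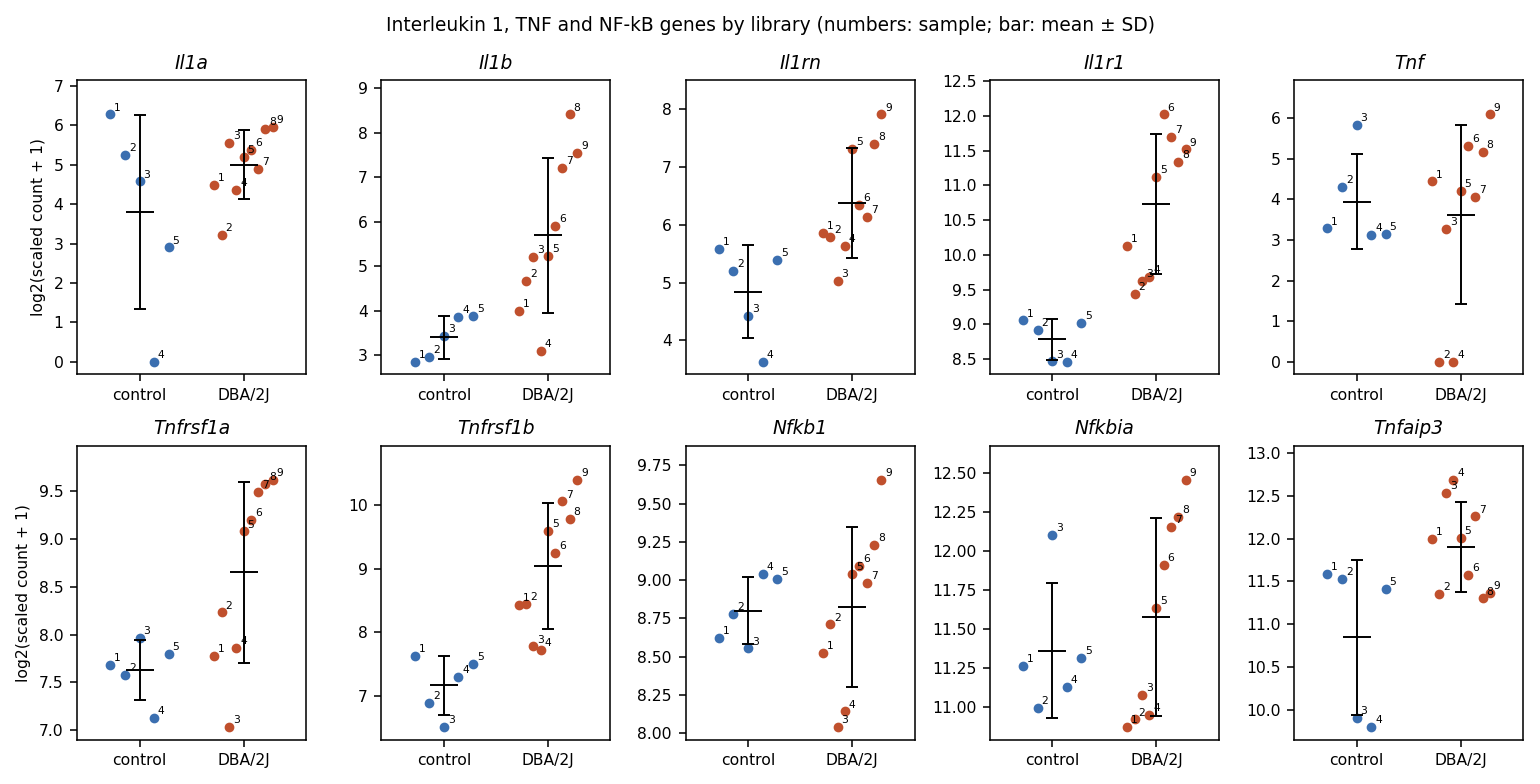
Level of each of the 10 genes, as log2(scaled count + 1), in 5 control (blue) and 9 DBA/2J (orange) libraries, with sample numbers, the mean and the SD. The groups do not overlap for Il1r1 and Tnfrsf1b, while Il1a, Tnf, Nfkb1 and Nfkbia overlap widely.

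Il1b, which encodes interleukin 1 beta (chromosome 2, 129364570 to 129371139, reverse strand, GRCm38 as all gene positions here), was low in control veins, at scaled counts of 6.20, 6.79, 9.81, 13.4 and 13.7 in samples 1 to 5. In DBA/2J samples 1 to 9 it stood at 15.0, 24.5, 35.9, 7.49, 36.3, 59.1, 147, 339 and 185. All DBA/2J libraries but sample 4 lay above every control, and samples 7 to 9 stood apart as the highest. Means were 9.98 ± 3.54 (SD, n = 5) and 94.4 ± 110 (SD, n = 9). The log2 fold change was 2.30 (SE 0.70, 95% interval 0.82 to 3.78, adjusted p = 0.0294, limma). The control values rest on 6.66 to 14.8 estimated reads per library. The call was lost when control sample 1, 2 or 3 or DBA/2J sample 7 was left out (adjusted p up to 0.0632). The annotation places an antisense transcript, Il1bos, across Il1b, and it was at 11.1 to 22.2 in controls and 7.61 to 36.5 in DBA/2J. A count that ignores strand would not separate the pair.

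Il1a, the gene of interleukin 1 alpha, which cells hold ready and release on damage (chromosome 2, 129299610 to 129309972, reverse strand), showed no such separation. Control scaled counts were 76.8, 37.03, 22.9, 0 and 6.49 in samples 1 to 5, and DBA/2J values ran from 8.30 through a median of 35.8 to 61.5. No DBA/2J library exceeded control sample 1. The log2 fold change was 1.20 (SE 0.77, 95% interval -0.42 to 2.81) and did not pass (adjusted p = 0.296, limma). It was set largely by control sample 4, listed at 0, where 3 reads would be a scaled count of 3.07, and without that library it was 0.25. With controls 4 and 5 alone as controls it was 3.55 and passed (adjusted p = 0.0159), and with controls 1 to 3 alone it was -0.37. The ratio of Il1b to Il1a within a library was 0.0807 to 2.11 in the 4 controls with a value and 0.380 to 5.72 in DBA/2J, so these ranges overlapped.

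Il1rn (chromosome 2, 24336853 to 24351494, forward strand) encodes the interleukin 1 receptor antagonist, which occupies the receptor without signalling. Its scaled counts were 46.8, 35.8, 20.4, 11.4 and 40.9 in controls 1 to 5 and 56.7, 54.5, 31.7, 48.7, 158, 80.4, 69.2, 167 and 239 in DBA/2J samples 1 to 9. DBA/2J libraries exceeded the highest control in 8 of 9 cases, sample 3 being the exception. The mean went from 31.1 ± 14.7 (SD, n = 5) to 101 ± 70.5 (SD, n = 9). Il1rn rose by 1.53 on the log2 scale (SE 0.46, 95% interval 0.57 to 2.50, adjusted p = 0.0259, limma). The call was lost without control sample 3 or 4 (adjusted p up to 0.0864). The antagonist and Il1b thus both rose, and the ratio of Il1b to Il1rn was 0.132 to 1.18 in controls and 0.154 to 2.13 in DBA/2J. Only in DBA/2J samples 3, 7 and 8 and control sample 4 did the scaled count of Il1b exceed that of Il1rn.

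Il1r1, the signalling receptor for both interleukin 1 forms (chromosome 1, 40225080 to 40317257, forward strand), gave a clear separation. Scaled counts were 532, 484, 353, 352 and 517 in controls 1 to 5. DBA/2J samples 1 to 4 stood at 1118, 692, 791 and 821, and samples 5 to 9 at 2235, 4156, 3309, 2595 and 2932. Every DBA/2J library lay above every control, as was the case for 2.91% of all genes tested (2.31% lay wholly below), and samples 5 to 9 lay above samples 1 to 4. The log2 fold change was 1.95 (SE 0.40, 95% interval 1.11 to 2.78, adjusted p = 0.00358, limma). It stayed between 1.78 and 2.11, and past the threshold, whichever single library was left out (adjusted p up to 0.0134). With the mean of the pan-endothelial markers as a covariate it was 1.39 (adjusted p = 0.00139).

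Tnf, the gene of tumour necrosis factor (chromosome 17, 35199381 to 35202007, reverse strand), was close to the limit of detection. Control scaled counts were 8.75, 18.9, 55.9, 7.68 and 7.84 in samples 1 to 5. DBA/2J samples 1 to 9 stood at 20.7, 0, 8.64, 0, 17.5, 38.7, 15.7, 34.9 and 67.2. The groups overlapped, with sample 3 the highest control and sample 9 the highest of all. The log2 fold change of -0.32 did not pass (SE 0.93, 95% interval -2.27 to 1.62, adjusted p = 0.848, limma), an interval that leaves room for a change of over 1 log2 unit in either direction. In the libraries listed at 0, DBA/2J samples 2 and 4, 3 reads would be scaled counts of 2.59 and 5.17.

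Tnfrsf1b and Tnfrsf1a encode the TNF receptors 2 and 1, of which the first is largely restricted to endothelial and immune cells and the second is widespread. Tnfrsf1b (chromosome 4, 145213463 to 145246870, reverse strand) was at 196, 118, 89.9, 157 and 181 in controls 1 to 5 and at 346, 347, 218, 209, 771, 606, 1066, 878 and 1350 in DBA/2J samples 1 to 9. No DBA/2J library reached down to the controls, though samples 3 and 4 came close to control sample 1. Tnfrsf1b rose by 1.88 (SE 0.41, 95% interval 1.03 to 2.74, adjusted p = 0.00482, limma), and the call held whichever library was left out (adjusted p up to 0.0194). Tnfrsf1a (chromosome 6, 125349362 to 125362484, forward strand) stood at 204, 191, 249, 139 and 221 in controls. In DBA/2J samples 1 to 9 its scaled counts were 218, 300, 130, 232, 540, 589, 720, 761 and 786. Samples 1, 3 and 4 lay within or below the control range and samples 5 to 9 at over 2 times the highest control. The log2 fold change of 1.02 did not pass (SE 0.38, 95% interval 0.22 to 1.83, adjusted p = 0.0685, limma). It passed without DBA/2J sample 1 or 3 (adjusted p = 0.0486 and 0.0150), and once the length and GC trend was taken out (1.01, adjusted p = 0.0422). Whether the 2 receptors changed unequally was not tested. Their ratio within a library, Tnfrsf1b to Tnfrsf1a, was 0.362 to 1.13 in controls (median 0.817) and 0.903 to 1.72 in DBA/2J (median 1.43), and the ranges overlapped.

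**Figure D2:**
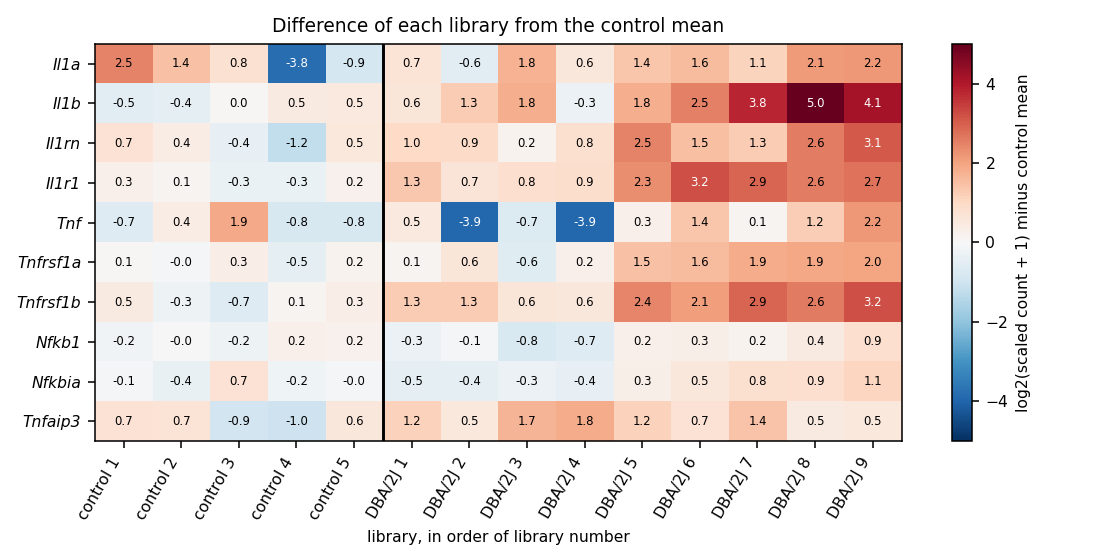
Difference of each library from the control mean, in log2(scaled count + 1), for the 10 genes in order of library number. DBA/2J samples 5 to 9 stand above the control mean for all 10 genes, while samples 1 to 4 stand below it for Nfkb1 and Nfkbia and above it for Il1r1 and Tnfrsf1b.

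Nfkb1 (chromosome 3, 135584655 to 135691547, reverse strand) encodes p105, the precursor of the p50 subunit of NF-kB. Its scaled counts were 392, 438, 375, 525.7 and 514 in controls 1 to 5 and 367, 418, 262, 281, 524, 545, 504, 600 and 805 in DBA/2J samples 1 to 9. Samples 1, 3 and 4 lay below every control, and samples 6, 8 and 9 above. The mean difference was 0.02 (SE 0.23, 95% interval -0.46 to 0.51, adjusted p = 0.957, limma), and its sign changed with the scaling (-0.17 after quantile normalization).

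Nfkbia (chromosome 12, 55489410 to 55492647, reverse strand) encodes I-kappa-B alpha, the inhibitor that holds NF-kB in the cytoplasm and is resynthesised when NF-kB is active. It was at 2458, 2041, 4398, 2239 and 2552 in controls 1 to 5. DBA/2J samples 1 to 4 stood at 1875, 1940, 2166 and 1982, and samples 5 to 9 at 3186, 3848, 4548, 4758 and 5612. Samples 1, 2 and 4 thus lay below every control and samples 7 to 9 above every control. The difference of 0.22 on the log2 scale missed the threshold (SE 0.28, 95% interval -0.37 to 0.80, adjusted p = 0.637, limma). Nfkbia and Tnfaip3 are known targets of NF-kB, so their sequences are shown here: the 250 bases before a RefSeq start of each gene, the only start listed for Nfkbia and the first of 2 for Tnfaip3, in GRCm38.p6, on the gene's strand, with matches to the NF-kB consensus in capitals.
Nfkbia, chr12:55492648-55492897, minus strand: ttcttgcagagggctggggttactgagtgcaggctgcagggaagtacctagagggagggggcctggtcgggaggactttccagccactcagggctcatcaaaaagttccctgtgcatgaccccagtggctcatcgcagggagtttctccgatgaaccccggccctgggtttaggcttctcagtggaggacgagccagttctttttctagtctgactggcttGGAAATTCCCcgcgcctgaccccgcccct
Tnfaip3, chr10:19015411-19015660, minus strand: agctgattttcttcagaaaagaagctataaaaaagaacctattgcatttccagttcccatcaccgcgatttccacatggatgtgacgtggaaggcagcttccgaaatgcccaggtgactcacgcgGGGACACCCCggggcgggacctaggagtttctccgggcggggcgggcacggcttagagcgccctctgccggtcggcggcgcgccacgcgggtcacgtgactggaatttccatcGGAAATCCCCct
The match in Nfkbia begins 29 bases before the start, and those in Tnfaip3 125 and 12 bases before it. The window of the second Tnfaip3 start, chr10:19011914-19012213, held 0 matches. Windows of 300 bases, from 250 before to 50 after the start, were searched on both strands. A window was found for 9 of the 10 genes, and 3 of these held the consensus at a start: Nfkbia, Tnfaip3 at its first start and Il1r1 at its second. Over all promoters 2581 of 27025 genes (9.55%) held it in a window, and by window it was in 8.46% of 32851. Over the DBA/2J libraries the 2 genes ran in different orders: Tnfaip3 was highest in samples 4 and 3, while Nfkbia was lower there than in samples 5 to 9.

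Tnfaip3 (chromosome 10, 19000910 to 19015657, reverse strand) encodes A20, a ubiquitin-editing enzyme that shuts off signalling from both receptor families. Scaled counts were 3067, 2958, 956, 887 and 2715 in controls 1 to 5 and 4092, 2615, 5948, 6597, 4113, 3050, 4903, 2521 and 2640 in DBA/2J samples 1 to 9. Controls 3 and 4 stood far below the rest, and 5 DBA/2J libraries exceeded the highest control. Tnfaip3 rose by 1.06 (SE 0.33, 95% interval 0.37 to 1.74, adjusted p = 0.0304, limma). Leaving out control sample 3, control sample 4, or sample 4 or 7 of DBA/2J ended the call (log2 fold change down to 0.79, adjusted p up to 0.110). It was also lost after removal of the length and GC trend (0.59, adjusted p = 0.221). Its level in DBA/2J followed that of the rod markers: samples 4, 3 and 7 ranked highest in both, in that order, and samples 8, 2 and 9 were the 3 lowest in both. With the mean of the rod markers as a covariate the log2 fold change was 1.11 (adjusted p = 0.00384). In controls the match was partial: control 4 was lowest in both Tnfaip3 and summed rod markers (443648). Control 3 had summed rod markers of 833113, beside 832421 in control 5, yet Tnfaip3 was 956 against 2715.

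**Figure D3:**
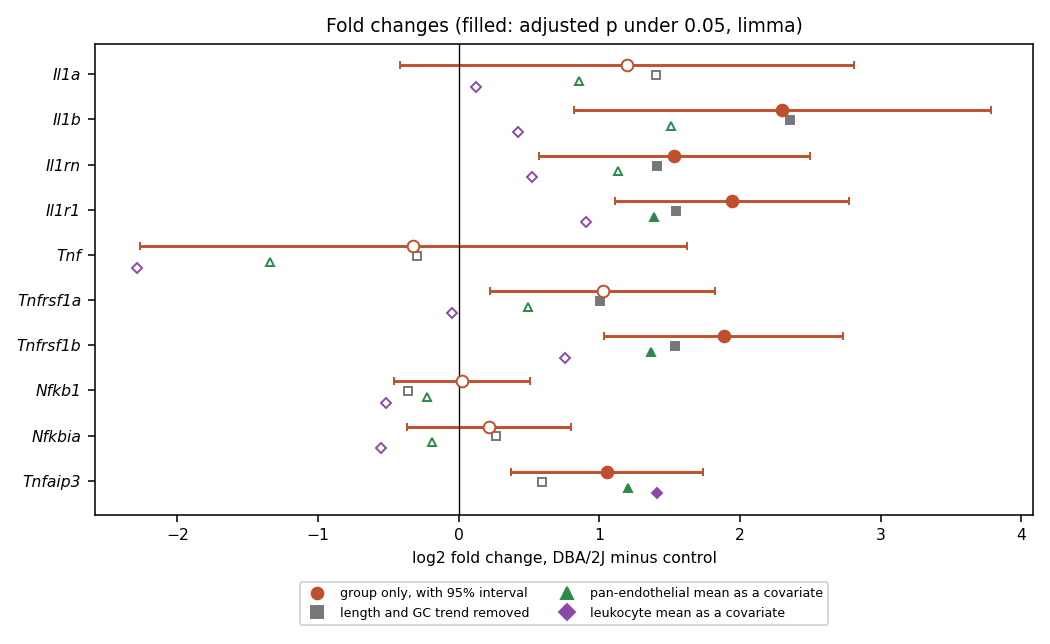
Log2 fold changes of the 10 genes, DBA/2J minus control, with 95% intervals (circles), after removal of the length and GC trend (squares), and with the pan-endothelial (triangles) or leukocyte (diamonds) mean as a covariate; filled symbols have an adjusted p under 0.05. With the leukocyte mean, Tnfaip3 alone of the 10 passes.

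Set per kilobase of the longest coding transcript, the control levels ran in the order Nfkbia (1735 scaled counts per kilobase), Tnfaip3 (479), Nfkb1 (109), Tnfrsf1a (93.0), Il1r1 (76.9), Tnfrsf1b (38.9), Il1a (14.5), Il1rn (12.6), Tnf (12.1) and Il1b (7.36). The ranges over libraries of the last 4 overlapped one another, as did those of Nfkb1, Tnfrsf1a and Il1r1. In DBA/2J veins the order was Nfkbia (2106), Tnfaip3 (917), Il1r1 (356), Tnfrsf1a (220), Tnfrsf1b (169), Nfkb1 (116), Il1b (69.6), Il1rn (40.7), Il1a (18.1) and Tnf (13.8). Il1r1 went from below Nfkb1 to above it, and Il1b from the last place to above Il1rn. Each gene's range overlapped that of its neighbour in the DBA/2J order. The ranges of Il1b (5.52 to 250 per kilobase) and Il1rn (12.8 to 96.6) overlapped, as did those of Il1r1 (119 to 714) and Tnfrsf1a (60.2 to 365).

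Several marker lists moved with most of these genes across libraries. Tnfaip3 did not go with them, its median being 5020 in DBA/2J samples 1 to 4 and 3050 in samples 5 to 9. The summed scaled count of 10 leukocyte markers was 969 to 1807 in controls, 1061 to 1722 in DBA/2J samples 1 to 4 and 2373 to 8932 in samples 5 to 9, and 5 of the 10 markers rose. All 10 were above 0 in every library. Microglial markers, of which 1 of 10 rose, were at 2394 to 3957, 2721 to 3762 and 5664 to 13283 in the same order. Macrophage and monocyte markers (5 of 10 higher) were at 601 to 1026 in controls, 545 to 1165 in samples 1 to 4 and 1435 to 3533 in samples 5 to 9. DBA/2J samples 1 and 2, at 1114 and 1165, thus already lay above every control. Neutrophil markers (1 of 8 higher) reached 2852 in DBA/2J sample 8, the library with the highest Il1b, against 162 to 512 in controls. Pan-endothelial markers, 5 of 17 higher, were at 34255 to 79233 in samples 5 to 9 and at 18800 to 29805 in samples 1 to 4. Lists of other cells were split in the same way: markers of Muller glia, the radial glia of the retina, of which 3 of 8 were higher, stood at 83237 to 101953 in samples 1 to 4 and 144041 to 244812 in samples 5 to 9. Mural cell markers, 2 of 10 higher and 1 lower, stood at 5597 to 9297 and 10338 to 25127. With the leukocyte mean as a covariate the log2 fold change was 0.42 for Il1b (adjusted p = 0.663), 0.52 for Il1rn (adjusted p = 0.472), 0.90 for Il1r1 (adjusted p = 0.0552) and 0.76 for Tnfrsf1b (adjusted p = 0.0826), none of which passed, and 1.41 for Tnfaip3 (adjusted p = 0.0202). With the pan-endothelial mean Il1b (1.51, adjusted p = 0.0766) and Il1rn (1.13, adjusted p = 0.0717) did not pass, while Il1r1, Tnfrsf1b (1.37, adjusted p = 0.00431) and Tnfaip3 (1.21, adjusted p = 0.0186) did. Il1r1 and Tnfrsf1b were above every control in all 9 DBA/2J libraries, and so were single markers of several lists. These were Laptm5 and Itgb2 (leukocyte), Cx3cr1 (microglia), F13a1 and Lyve1 (macrophage), Kdr (pan-endothelial) and Aqp4 and Slc1a3 (Muller glia), chosen after their values were seen. Of the microglial and macrophage lists, Sall1, Pf4 and Mrc1 exceeded the highest control in 0, 2 and 4 of the 9. The part of RNA from any of these cells in the differences of the 10 genes was not tested.

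**Figure D4:**
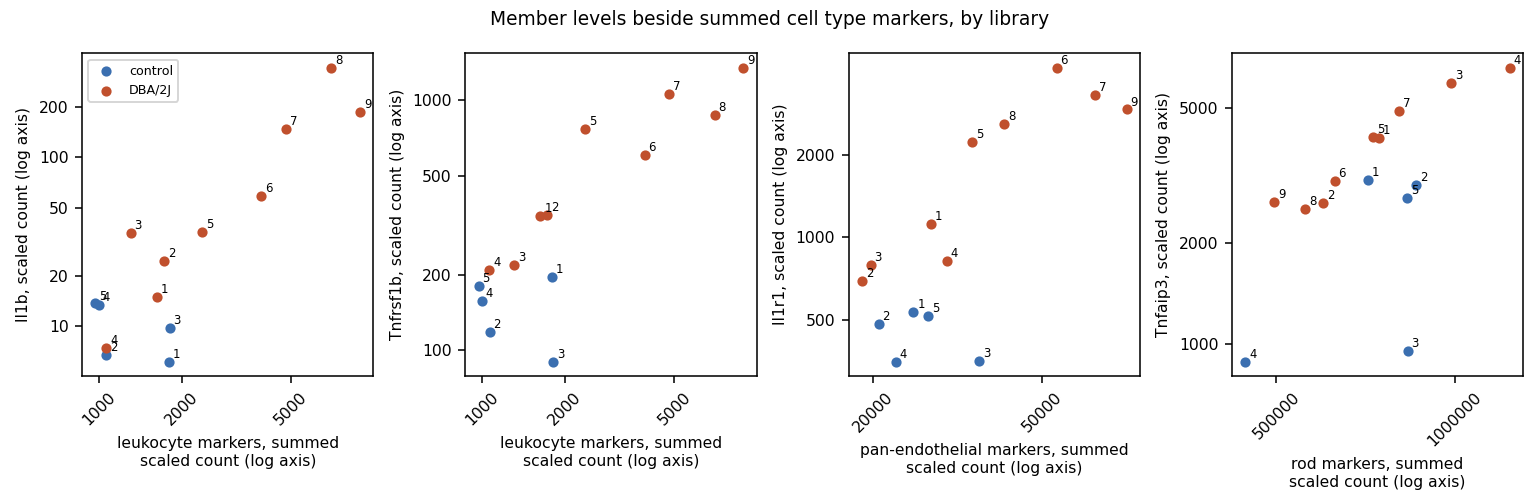
Scaled counts of Il1b and Tnfrsf1b against summed leukocyte markers, Il1r1 against summed pan-endothelial markers and Tnfaip3 against summed rod markers, on log axes, for 5 control (blue) and 9 DBA/2J (orange) libraries with sample numbers. DBA/2J samples 5 to 9 lie at the upper right of the first 3 panels, and the DBA/2J libraries line up with rod markers in the last.

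By likeness of pattern, measured as Pearson r of log2(scaled count + 1) over the 14 libraries among coding genes averaging 50 or more, Tnfrsf1b was closest to Csf1 (r = 0.97), a macrophage growth factor gene, then to Lcp1 (0.96), an actin-bundling gene of leukocytes that is also in the leukocyte list, and Msn (0.95). Il1r1 was closest to She (0.97), Ets2 (0.96) and Osmr (0.95), the oncostatin M receptor gene. Il1b was closest to Pakap (0.93), Ptpn1 (0.93) and Ptgs2 (0.92), the last being cyclooxygenase 2. Il1rn was closest to Prkcd, Ctsb and Chst2 (0.95, 0.95 and 0.94), and Tnfrsf1a to Serping1, Slfn5 and Slco2b1 (each 0.96). Nfkbia was closest to Clic1 (0.97), Mgp (0.96) and Sigirr (0.96), Nfkb1 to Mis18a (0.91), Mrc1 (0.90) and Zbp1 (0.89), and Tnf to Mfap5, Gpr4 and Nr2c2ap (0.89, 0.89 and 0.88). Il1a was closest to Dazap1 (0.93), Zscan21 (0.91) and Ap2m1 (0.91). Tnfaip3 was closest to Gnb1 (0.98), the beta subunit gene of rod transducin, Cdhr1 (0.98), a photoreceptor cadherin gene, and Cerk (0.97). Gnb1 shared the low controls 3 and 4, at 22533 and 21492 against 66178 to 75612 in the other controls. The summed rod markers were low in control 4 (443648) but not in control 3 (833113). These values describe the closest of 13013 or 13014 candidates, and the libraries share their groups and depth. Within the 9 DBA/2J libraries alone the r of these pairs was between 0.64 and 0.97. Within the 5 controls alone it ran from 0.25 (Nfkb1 and Zbp1) to 0.9998 (Tnfaip3 and Gnb1).

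The wider pathway, taken from 6 lists of 99 genes in all that overlap each other and contain the 10 genes, held 39 higher and 2 lower genes. Beside these and the list counts below stand 12.1% higher and 7.2% lower over all genes tested. Among coding genes averaging 50 or more the shares were 22.4% and 9.23%. In the list of interleukin 1 family ligands and receptors 6 of 14 rose and 1 fell (the median fold change, in log2, was 1.08). Beside Il1b, Il1rn and Il1r1 the genes that rose were Il1r2, Il1rap and Il33. Il1r2, the decoy receptor, rose by 2.22 (SE 0.72, adjusted p = 0.0372, limma), with 1.19 to 19.0 estimated reads per control library. Il1rap, the shared accessory chain, rose by 1.13 (adjusted p = 0.0423, limma). Its lowest control stood at 34.7, beside a control median of 247. Il33, an alarmin gene, rose by 1.00 (adjusted p = 0.0372, limma). Il18, the gene of another cytokine activated by caspase 1, fell by 1.27 (SE 0.21, adjusted p = 0.00115, limma), its mean being 633 ± 112 (SD, n = 5) in controls and 270 ± 80.9 (SD, n = 9) in DBA/2J. Il1rl2 (1.67, adjusted p = 0.111) and Il1rl1 (1.04, adjusted p = 0.158) did not pass. With the leukocyte mean as a covariate no higher call was left in this list and 2 genes were lower. Of 13 adaptors and kinases of the receptor 6 were higher (median 0.61), against 2 higher and 1 lower after removal of the length and GC trend and 2 higher with the leukocyte mean as a covariate. They include Traf6, the ubiquitin ligase downstream of the receptor, at 1.49 (SE 0.27, adjusted p = 0.00197), Tollip at 0.95, Peli1 at 0.61, the kinase gene Map3k7 at 0.95 and Irak3, an inhibitory kinase gene, at 1.42. Myd88, the main adaptor gene, at 0.79, did not pass (adjusted p = 0.0711), nor did Irak1 (0.47, adjusted p = 0.0813). Of 8 inflammasome genes none passed in either direction (1 higher at an unadjusted p under 0.05 and 1 with voom weights; median 0.54). Nlrp1a had the lowest p of them (2.37, adjusted p = 0.0562), and Casp4 followed (1.26, adjusted p = 0.227). For Nlrp1a 4 of 5 controls and 3 of 9 DBA/2J libraries were at 0, and the DBA/2J median was a scaled count of 8.78.

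Among 26 TNF ligands, receptors and signalling proteins 7 were higher and 1 lower (median 0.50), a share close to that of coding genes. Traf3 (0.96, adjusted p = 0.00152, limma) and Cyld (0.96, adjusted p = 0.00199), which both restrain NF-kB signalling, were above every control in all 9 DBA/2J libraries. So were Il1rap, Ikbkb, Tnip2, Ptgs2, Cfb and Selp of the other lists, and 2.91% of all genes tested. Adam17, the protease that sheds TNF and its receptors, rose by 0.94 (adjusted p = 0.00786), Birc2 by 0.68 (adjusted p = 0.01002) and Birc3 by 1.33 (adjusted p = 0.0304), both ubiquitin ligase genes of the receptor complex. Traf2 (0.47, adjusted p = 0.0594) and Traf5 (0.54, adjusted p = 0.0694) did not pass. Sharpin, part of the linear ubiquitin complex and chosen after its value was seen, fell by 0.43 (adjusted p = 0.0380). Of 18 NF-kB subunits, kinases and inhibitors 9 were higher (median 0.77). Ikbkb, the catalytic kinase gene of the pathway, rose by 0.74 (SE 0.14, adjusted p = 0.00284), with 1076 ± 245 scaled counts in controls (SD, n = 5) and 1774 ± 243 in DBA/2J (SD, n = 9). Ikbkg, the kinase scaffold, rose by 1.10 (adjusted p = 0.0106). Tnip2, an A20-binding inhibitor gene, rose by 0.94 (adjusted p = 0.00118), the subunit gene Rel by 1.23 (adjusted p = 0.00704) and Map3k14, the kinase of the non-canonical branch, by 0.84 (adjusted p = 0.0141). Rela (0.59, adjusted p = 0.0667) and Nfkb2 (0.85, adjusted p = 0.0756) did not pass.

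Of 28 NF-kB target genes 15 rose (median 1.32). The leading ones were Ptgs2 at 2.89 (SE 0.51, adjusted p = 0.00171, limma), Cfb, complement factor B, at 2.60 (adjusted p = 0.00186), and Lcn2 at 3.34 (adjusted p = 0.00646). The selectin genes Selp (5.89, adjusted p = 0.00249) and Sele (4.87, adjusted p = 0.00819) had 3 and 2 controls at 0. Icam1 (1.32, adjusted p = 0.0573) and Cxcl2 (2.54, adjusted p = 0.0712) did not pass. The consensus described above was in the windows of 13 of 23 target genes and of 8 of 14 subunit, kinase and inhibitor genes with a window, against 2581 of 27025 genes in all (9.55%). The target list was made of known NF-kB targets and shares genes with the other, so its share does not bear on DBA/2J. Of the leading genes, Ptgs2, Lcn2, Selp and Sele held 0 matches. With a match, Cxcl1, Il6, Nfkbie, Tnfaip3 and Csf1 rose. Cxcl2, Cxcl10, Nfkbia, Nfkb2, Tnfaip2, Sod2, Irf1 and Ier3, also with a match, did not pass. With the leukocyte mean as a covariate 4 target genes were higher and 1 lower, and over the 6 lists 13 were higher and 9 lower. Over all genes, higher genes made up 50.8% of calls with that mean and 62.6% without it. Of the leukocyte markers 5 of 10 rose themselves, so their mean partly follows the group. The drop can therefore not be read as particular to these lists. After removal of the length and GC trend 11 target genes were higher, and over the 6 lists 27.

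**Figure D5:**
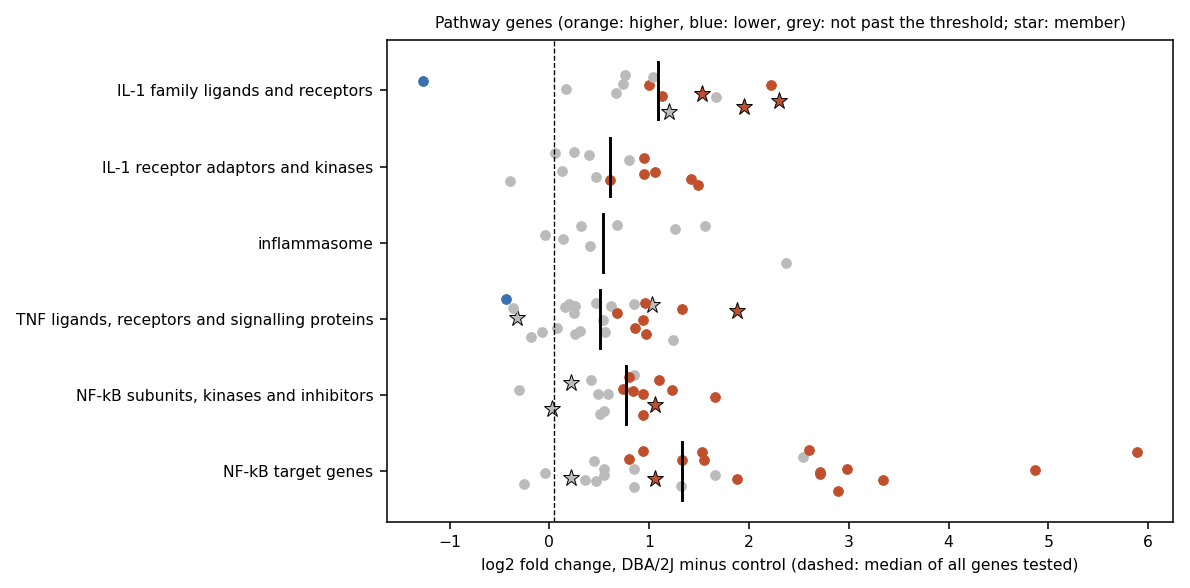
Log2 fold change, DBA/2J minus control, of each gene in the 6 lists, with the list median (bar), the median of all genes tested (dashed line) and the 10 genes as stars. Every list median lies to the right of the dashed line, and the NF-kB targets reach furthest, with Selp at 5.89.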

How the data were processed

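Retinal vein RNA was measured in 14 libraries, made from about 100 pg of RNA with SMART-Seq v4 and Nextera XT, per the labels' protocols. The deposited signal values are, from the values, estimated counts per gene symbol divided by 1 factor per library, and the making of the factors is not described in the sources used here. The series design text names kallisto with GRCm38 and GENCODE M23, while GRCm39 and sleuth stand beside kallisto in the submitters' processing notes, which leaves the build of the values unsettled. Promoter sequences and their coordinates come from RefSeq (GRCm38.p6), and gene positions, transcript lengths, overlaps and types from GENCODE M21 (GRCm38, 39019 of 40123 symbols matched). Symbols turned into dates (26 rows, up to 0.201% of a library) were left out.

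Reads were estimated by taking the most frequent value above 0 in each library as 1 read. Within 0.01, 19.2% to 22.2% of values were whole reads, so no count test was run. Genes that reached a value of 1 in 5 or more libraries entered limma 3.58.1 (trend, group as the only term, two-sided) in R 4.3.3 on log2(value + 1), with Benjamini-Hochberg adjustment at 0.05 over all 29166 genes. This scale shrinks changes of low genes. In simulated data for this comparison (28501 genes, with 200 changed) 49% of 2-fold and 92% of 4-fold changes were called. Of the calls, 5.37% fell on genes left unchanged. The fit to the real data called 5619 genes, 62.6% of them higher, so the simulated rates may not carry over to it. Whether they hold for genes as low as Il1a and Tnf was not tested. The length and GC trend was a spline of 5 degrees of freedom each per library. Named genes were the 10 genes, in each list up to 5 passing and 2 not passing with the lowest p, and for each gene the 3 most alike. The genes and lists were chosen with earlier results of these data known. Reads carry no molecular identifiers, so read floors cover counting error only. Same-numbered libraries did not deviate together (r from -0.082 to 0.015 over genes), so the numbers do not pair them.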

Additional observations from a re-analysis of the deposited data

How the results depend on the processing

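The number of the 10 genes called higher was 5, and stayed within 1.5 times that with another pseudocount (0.1 or 5), a stricter filter, quantile normalization, equal library totals, trimmed mean (TMM) scaling, voom weights, removal of the length and GC trend, the rod mean as a covariate or without the 2 shallowest libraries. It was 3 with no filter, 3 with the pan-endothelial mean, 3 with the microglial mean, 1 with the leukocyte mean and 0 with the lens mean as a covariate, 2 with controls 1 to 3 alone (Il1r1 and Tnfrsf1b) and 1 with controls 4 and 5 alone. That 1 gene was Il1a, and none of the 5 passed there (limma, adjusted p = 0.0576 for Il1r1, 0.0637 for Tnfaip3, 0.0925 for Il1rn, 0.0997 for Tnfrsf1b and 0.291 for Il1b). The summed lens markers did not overlap between the groups, and with their mean 1 gene was higher and 10 lower over all genes, and 0 and 0 over the 6 pathway lists. Leaving out 1 library at a time gave 2 to 6 of the 10 higher and 0 to 0 lower, 2283 to 3974 genes higher and 1247 to 2341 lower over all genes, and 25 to 42 higher and 1 to 2 lower in the lists. It was 2 without control sample 3 (2283 higher and 1247 lower over all genes) and 3 without control sample 4 or DBA/2J sample 7. Over all genes, 1521 were higher after removal of the length and GC trend and 1338 lower with voom weights, which moved the median of all genes to 0.23. Controls 1 to 3 alone gave 2334 higher and 1373 lower genes, and controls 4 and 5 alone 1673 and 773. In the lists, 13 were higher and 9 lower with the leukocyte mean, and 20 and 7 with the microglial mean. Over all genes, higher genes made up 50.8% and 52.8% of the calls with these means, against 62.6% without a covariate. Controls 1 to 3 alone gave 19 higher, and controls 4 and 5 alone 13 higher and 1 lower. With equal totals, with voom weights and without the 2 shallowest libraries 1 was lower.

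No control shares a number with DBA/2J samples 6 to 9, which therefore add nothing to the difference under the replicate block. The block gave 2 of the 10 genes higher (Il1r1 and Tnfrsf1b), 1408 genes higher and 1057 lower, and 14 higher and 1 lower in the lists. Under the block Nfkb1 was at -0.310 and Nfkbia at -0.268.

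Signs changed only for genes that did not pass. Nfkb1 was at -0.166 after quantile normalization, -0.004 with TMM scaling, -0.363 after removal of the length and GC trend, and -0.201 when controls 4 and 5 stood alone. As covariates the pan-endothelial, leukocyte, lens, microglial and rod means gave it -0.227, -0.516, -0.007, -0.414 and -0.0121 in turn. Nfkbia was at -0.188, -0.551, -0.023 and -0.397 with the first 4 of these, and Tnfrsf1a at -0.0488 with the leukocyte mean. Tnf was at 0.135 with equal totals, 1.24 with the lens mean, 0.486 with controls 4 and 5 alone and 0.077 without the 2 shallowest libraries. Il1a was at -0.37 with controls 1 to 3 alone. Leaving out 1 library gave -0.0804 to 0.122 for Nfkb1 and -0.631 to 0.151 for Tnf. The microglial and rod covariates and the set without the 2 shallowest libraries were chosen after seeing the data. The cause of these shifts was not tested. Depth limits Tnf, at 0 to 68.5 estimated reads per library, Il1a, at 0 to 108.5, and the controls of Il1b, at 6.66 to 14.8.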
